A study of Mus musculus with 36 samples.

Results

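Loss of Tet2 in restricted progenitors (RPs) was examined in 8 RNA libraries of mouse bone marrow, 4 from Control RPs and 4 from Tet2KO RPs, of the 36 samples in the series and the 18 RNA libraries matched to it in the deposited count table. The libraries were chosen by the names of their columns, which give the genotype and the cell type, and no measured value entered the choice. They are called here by the number in the column name: Control RP 1, 2, 3 and 5, and Tet2KO RP 1, 3, 4 and 5. All groups were C57BL/6 mice aged 8 weeks that carried the Vav-driven Cre recombinase, the Controls included. Controls were wild type at both floxed loci (Dnmt3a+/+; Tet2+/+), and Tet2KO mice were Tet2fl/fl. The Dnmt3aKO mice are given as floxed at Dnmt3a on both alleles or on a single one (Dnmt3afl/fl or +), without saying which library is which. The RPs were sorted for RNA as lineage-negative, cKit-positive, Sca1-positive cells that lacked CD150 and carried CD48. Each library came from a pool of male and female mice, so the p-values measure the spread between pools, and how many mice a pool held is stated inconsistently. Hematopoietic stem cells (HSCs), sorted as CD150-positive and CD48-negative cells of the same compartment, served as the second cell type, with 3 Control, 4 Tet2KO and 3 Dnmt3aKO libraries.

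TET2 is an enzyme that oxidises methylated cytosine in DNA, a step toward removal of the methyl mark, and it is among the genes most often mutated in human clonal blood-cell expansion. DNMT3A adds the same mark. Restricted progenitors lie downstream of stem cells, divide more and give rise to lymphoid and myeloid cells. Vav-driven Cre acts from early blood development onward and throughout the blood lineages and is not limited to RPs. No gene names could be given to the transcripts with the sources at hand. Identifiers are therefore given for 4 transcripts only, no sequence is shown, and neither the Tet2 level nor the markers of the sorted cells were checked.

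The 8 RP libraries held 3721009 to 7649318 counts. Tet2KO RP 4 stood apart from the other RP libraries, at 109 on the first principal component against -48.4 to 11.5 for the other 7, and its median Spearman correlation with its own group was 0.812 against 0.858 to 0.887 in the other libraries. At an equal depth of 3721009 counts, Tet2KO RPs held 41928 to 44910 transcripts and Control RPs 39880 to 41794, so the groups did not overlap in the number of transcripts detected. Within a library the 10 most abundant transcripts took 11.1% to 15.8% of the counts.

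In Tet2KO RPs 51 transcripts rose and 27 fell, 78 of the 18554 tested (0.420% of those tested in either direction, 0.275% higher and 0.146% lower). The test was edgeR's quasi-likelihood test on the 8 RP libraries, and called means a Benjamini-Hochberg adjusted p under 0.05. An unadjusted p under 0.05 was reached by 1323 transcripts, 7.13% of those tested. All 78 differed at least 2-fold, 62 at least 4-fold and 34 at least 16-fold. The higher transcripts had log2 fold changes from 1.39 to 8.10 with a median of 4.23, and the lower ones from -5.75 to -1.35 with a median of -2.33. The median over all tested transcripts was 0.01. At the threshold, the last transcript called had an adjusted p of 0.0498 and the first one not called 0.0503 (edgeR).

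**Figure D1:**
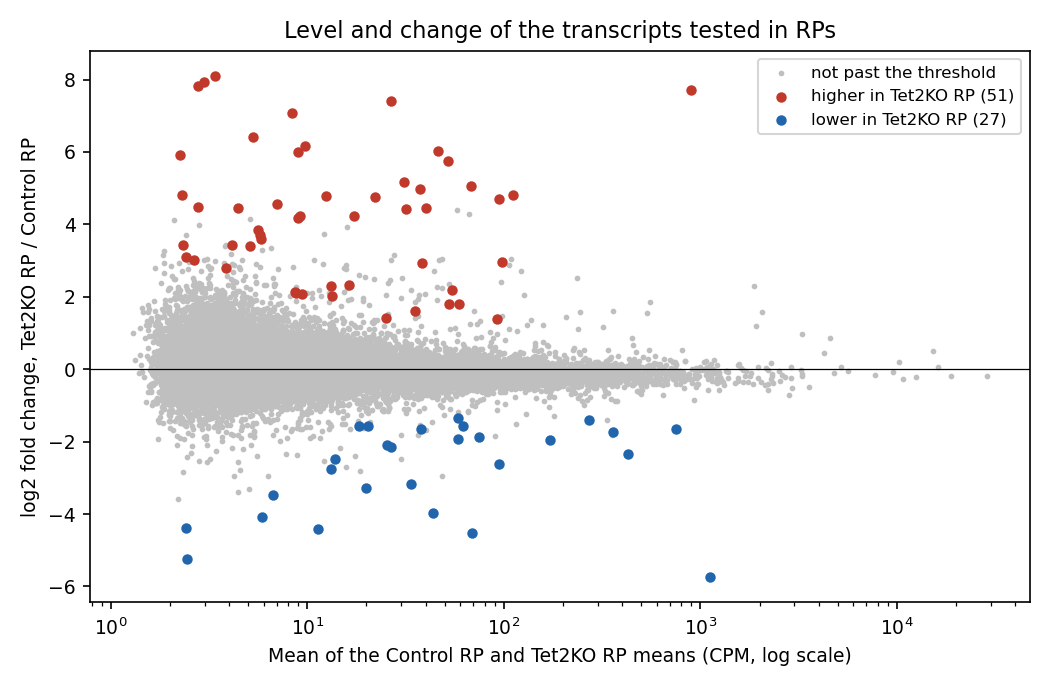
Level (x axis, mean of the Control RP and Tet2KO RP means, in CPM on a log scale, that is, read counts scaled to the library's total) against log2 fold change of Tet2KO RPs over Control RPs (y axis) for the 18554 transcripts tested. The 51 higher transcripts (red) reach 8.10, the 27 lower ones (blue) reach -5.75, and grey points did not pass the threshold.

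The change with the smallest p was the near loss of an abundant transcript. ENSMUST00000029722.6 stood at 2604, 2206, 2313 and 1715 CPM (read counts scaled to the library's total) in Control RP 1, 2, 3 and 5. In Tet2KO RP 1, 3, 4 and 5 it stood at 39.3, 30.7, 41.4 and 52.8 CPM. Every Control library lay far above every Tet2KO library, and the transcript was the 36th most abundant of those tested in Control RPs and the 3514th in Tet2KO RPs. Its mean fell from 2209 ± 370 to 41.0 ± 9.12 CPM (SD, n = 4 each). On the log2 scale this was -5.75 (SE 0.27), with an adjusted p of 7.57e-08 (edgeR).

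A transcript of similar abundance was gained. ENSMUST00000074680.7 stood at 12.0, 10.9, 7.46 and 4.35 CPM in Control RP 1, 2, 3 and 5, from 163 counts in all. In Tet2KO RP 1, 3, 4 and 5 it stood at 1413, 1574, 2614 and 1502 CPM. Tet2KO RP 4 was the highest, the other 3 lay close together, and the groups did not overlap. The mean rose from 8.67 ± 3.47 to 1776 ± 563 CPM (SD, n = 4 each). On the log2 scale this was 7.70 (SE 0.39), with an adjusted p of 1.34e-07 (edgeR), and its rank by level moved from 8913 to 44. The summed level of this transcript and ENSMUST00000029722.6 was 1719 to 2616 CPM in Control RPs and 1453 to 2655 CPM in Tet2KO RPs. These sums overlapped between the groups through Tet2KO RP 4 alone, at 2655 CPM. The other Tet2KO RP libraries, at 1453 to 1605 CPM, lay below all Control RPs. The means were 2218 ± 373 CPM in Control RPs and 1817 ± 562 CPM in Tet2KO RPs (SD, n = 4 each).

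The next 2 named by p were of moderate abundance. ENSMUST00000029936.4 was nearly even across the Controls, at 3.86, 3.72, 3.84 and 4.09 CPM in Control RP 1, 2, 3 and 5. It rose to 154, 142, 157 and 72.5 CPM in Tet2KO RP 1, 3, 4 and 5. Tet2KO RP 5 was the lowest of its group and still far above all Controls. The change was 5.07 on the log2 scale (SE 0.31) with an adjusted p of 1.01e-06 (edgeR), from 3.88 ± 0.16 to 131 ± 39.9 CPM (SD, n = 4 each).

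ENSMUST00000161230.2 fell from 103, 132, 104 and 188 CPM in Control RP 1, 2, 3 and 5 to 6.16, 6.67, 4.26 and 5.78 CPM in Tet2KO RP 1, 3, 4 and 5. The 4 Tet2KO libraries lay closer to each other than the Controls did, and the groups did not overlap. The change was -4.52 on the log2 scale (SE 0.29) with an adjusted p of 1.57e-06 (edgeR), from 132 ± 39.9 to 5.72 ± 1.04 CPM (SD, n = 4 each).

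Higher and lower transcripts differed in the level they started from. The 51 higher transcripts had a median level of 1.43 CPM in Control RPs and 19.1 CPM in Tet2KO RPs, where the median over all tested transcripts was 8.04 and 8.58 CPM. In Control RPs 25 of them lay under 1 CPM, 13 at 1 to 5 CPM, 6 at 5 to 10 CPM and 7 at 10 CPM or more. In Tet2KO RPs 7 reached 100 CPM or more, 31 lay at 10 to 100 CPM and 13 under 10 CPM. The 27 lower transcripts had a median of 60.6 CPM in Control RPs and 9.70 CPM in Tet2KO RPs. In Control RPs 9 of them lay at 100 CPM or more, 16 at 10 to 100 CPM and 2 under 10 CPM. In Tet2KO RPs 4 were under 1 CPM, 10 at 1 to 10 CPM and 13 at 10 CPM or more.

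The filter on low counts bears on these levels. It asked for about 2.04 CPM in at least 4 of the 8 libraries. Of the 51 higher transcripts, 33 did not reach that level in all Control RPs, and 7 of the 27 lower ones did not reach it in all Tet2KO RPs. Those transcripts passed through the group where they were high, so their number and levels are partly set by the filter. Tet2KO RPs also held more transcripts at equal depth (above), and its part in the higher count was not tested. No lower transcript was at 0 counts in all Tet2KO RPs, while 3 higher ones had no count in any Control RP. These 3 were at least 38.1-fold to 46.5-fold higher, against a floor of 3 counts over the Control RP libraries.

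The summed level fell more over the lower transcripts than it rose over the higher ones. Summed over the 27 lower transcripts, the level was 6137 to 6728 CPM in Control RPs and 958 to 1451 CPM in Tet2KO RPs. Summed over the 51 higher transcripts, it was 242 to 290 CPM in Control RPs and 3372 to 4493 CPM in Tet2KO RPs. After ENSMUST00000029722.6, the most abundant lower transcript, 66th by p, stood at 872, 1505, 1155 and 1021 CPM in Control RP 1, 2, 3 and 5 and at 574, 319, 167 and 379 CPM in Tet2KO RP 1, 3, 4 and 5. Its highest Tet2KO library lay below its lowest Control library, at -1.66 on the log2 scale (SE 0.32) and an adjusted p of 0.0367 (edgeR). This transcript was called in 2 of the 8 fits that left out 1 RP library. The next, 34th by p, fell from 719 ± 171 to 143 ± 64.7 CPM (SD, n = 4 each), with Tet2KO RP 5 the lowest at 49.4 CPM and the other 3 at 155 to 198 CPM. Among higher transcripts, the second most abundant in Tet2KO RPs, 9th by p, rose from 7.91 ± 3.40 to 216 ± 66.9 CPM (SD, n = 4 each).

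**Figure D2:**
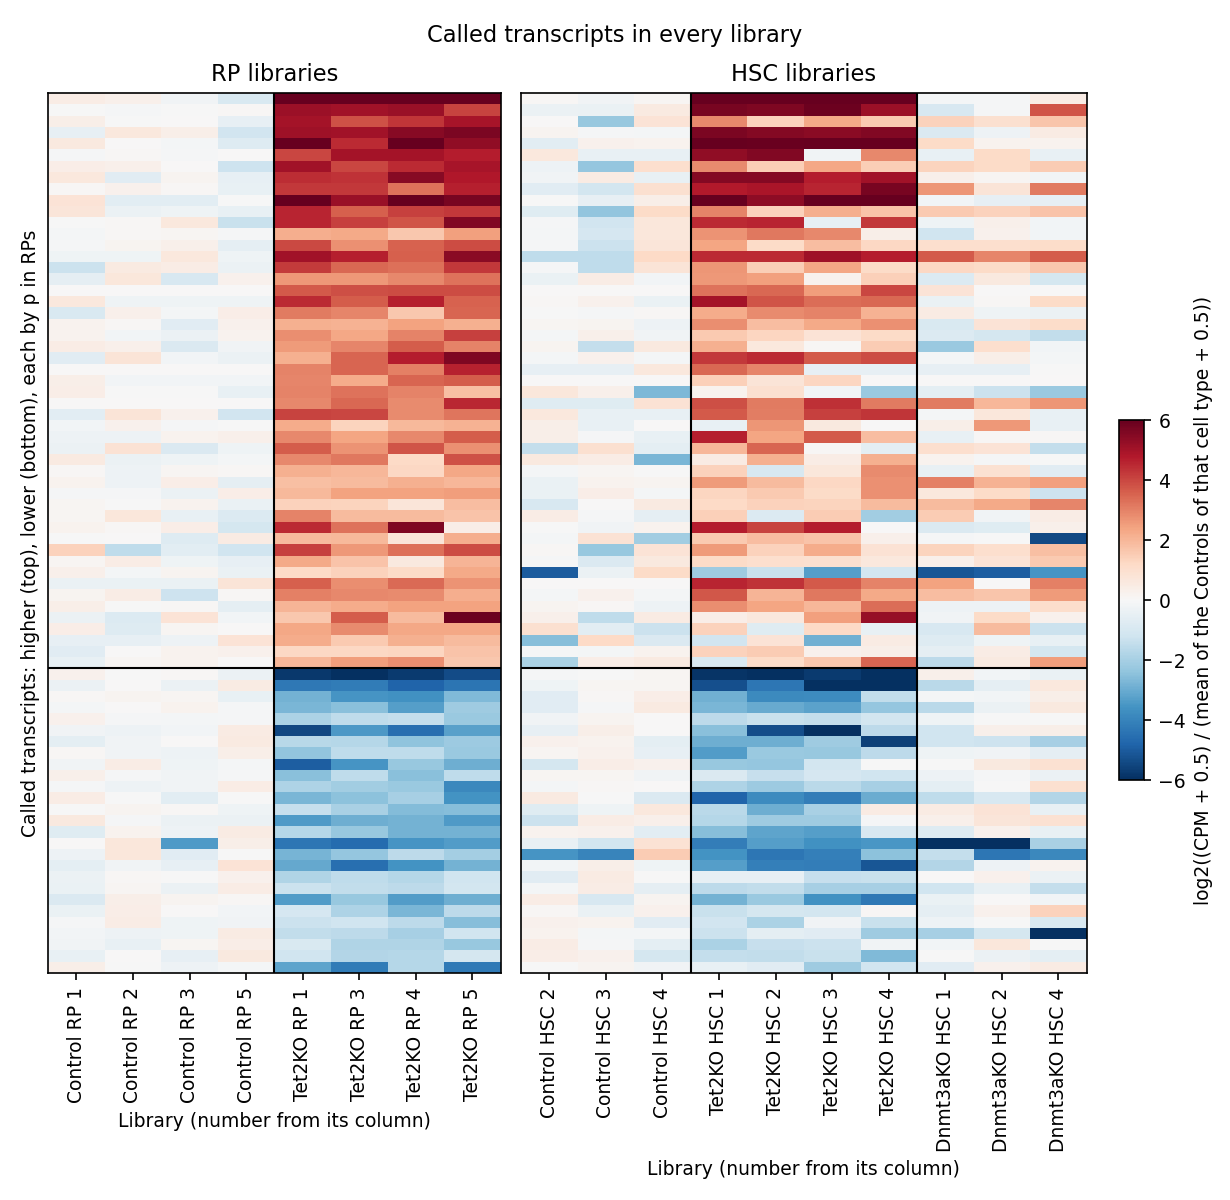
Each row is 1 of the 78 called transcripts (51 higher above the line, 27 lower below it, each ordered by p in RPs) and each column 1 library, coloured by log2((CPM + 0.5)/(Control mean + 0.5)), with the Control mean of the same cell type and colours limited at ±6. Rows are of 1 colour across the 4 Tet2KO RP libraries except for a few with a pale library, and most keep that colour, more faintly, in Tet2KO HSCs.

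The libraries of each genotype mostly moved as a block. In 76 of the 78 transcripts, 50 higher and 26 lower, no Control RP library overlapped a Tet2KO RP library. Over all tested transcripts 4.57% had no overlap, 2.58% higher and 1.99% lower. The test used the same libraries, so this count describes the calls and does not support them. In 60 transcripts, 42 higher and 18 lower, the nearest libraries of both genotypes were at least 2-fold apart. This count too only describes the calls, and the share of all tested transcripts with such a gap was not computed. The ratio of the highest to the lowest Tet2KO library had a median of 2.26 over the higher transcripts, and that of the Control libraries 1.76 over the lower ones.

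The exceptions were single libraries that lay with the other genotype. A lower transcript, 46th by p, stood at 83.6, 133 and 105 CPM in Control RP 1, 2 and 5 but at 7.25 CPM in Control RP 3, within the 2.86 to 7.60 CPM of the Tet2KO RPs. A higher transcript, 58th by p, stood at 47.5, 19.8 and 101 CPM in Tet2KO RP 1, 3 and 4 but at 2.31 CPM in Tet2KO RP 5, within the 0.512 to 2.35 CPM of the Control RPs. Both were called with all libraries, at adjusted p of 0.0115 and 0.0292 (edgeR), and in 4 and 2 of the 8 fits that left out 1 library. The genotype and genetic background of these pools could not be checked with the sources at hand, and their part in such high-or-absent values was not tested. A further higher transcript, 72nd by p, varied widely within Tet2KO RPs, from 11.6 CPM in Tet2KO RP 1 to 232 CPM in Tet2KO RP 5, above Control RPs throughout. That transcript was called in 2 of the 8 fits that left out 1 library. In Tet2KO HSC 4 the transcripts 58th and 72nd by p stood at 1.35 and 201 CPM. In Tet2KO HSC 1, 2 and 3 they stood at 29.5 to 47.9 and at 6.50 to 28.8 CPM. The transcript 46th by p had no such low Control HSC library, at 32.5 to 127 CPM. Among the higher transcripts 4 varied 5-fold or more between Tet2KO libraries, and 1 lower transcript varied so between Control libraries.

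Of the 78 transcripts, 41 (28 higher and 13 lower) were called in all 8 fits that left out 1 RP library, 28 in at most 3 of them, and all 78 kept their direction in every fit. The 4 transcripts named by identifier were called in all 8. Without Tet2KO RP 4, the library that stood apart, 90 transcripts were called, of which 64 were among the 78. Without Control RP 2 the count was 46, all among the 78. DESeq2 called 221 (1.19% of those it tested), the 78 included, and limma-voom 43 (0.232%), of which 40 were among the 78.

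HSC libraries, which played no part in the calls, were then used to ask which of these changes were also present in stem cells. Whether RP and HSC pools shared mice or genetic background was not tested, so the cell types are not treated as independent. Of the 78, 73 were tested in a separate fit of 3 Control and 4 Tet2KO HSC libraries, and 16 of the 73 (21.9%) were called there, 9 higher and 7 lower, by edgeR. Over all 21368 transcripts tested in HSCs, 21 were called (0.0983%). No transcript was called in opposite directions, and the shared calls were 20.5% of the RP calls and 76.2% of the HSC calls. The direction was the same in both cell types for 71 of the 73 (97.3%), against 56.3% of the 17289 transcripts tested in both. Without the Control and Tet2KO HSC libraries numbered 4, which held the fewest transcripts of their groups (34373 and 36037), 18 of the 74 then tested were called and 71 had the same direction. Over all 24616 transcripts tested in that fit, 21 were called. With DESeq2 in HSCs, 44 of the same 73 were called, 29 higher and 15 lower, against 1.79% of all transcripts tested there by DESeq2. The other 29 were not called. The 16 shared calls became 8 to 10 when Control HSC 2 or 3, or Tet2KO HSC 1, 2 or 3, was left out.

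The 4 transcripts named by identifier were called in both cell types in the same direction, each with a larger estimated change in HSCs. ENSMUST00000029722.6 stood at 1705, 1737 and 1903 CPM in Control HSC 2, 3 and 4 and at 24.7 to 32.5 CPM in the 4 Tet2KO HSC libraries, or -5.92 on the log2 scale (SE 0.20). ENSMUST00000074680.7 stood at 4.23 to 5.4 CPM in Control HSCs and 1164 to 1860 CPM in Tet2KO HSCs, or 8.29 on the log2 scale (SE 0.30). ENSMUST00000029936.4 changed by 5.80 (SE 0.38) and ENSMUST00000161230.2 by -5.49 (SE 0.62) on the log2 scale. Testing whether the change in RPs differed from that in HSCs gave unadjusted p of 0.576, 0.158, 0.1 and 0.141 in that order, with adjusted p from 0.85 to 0.993 (edgeR). These p-values do not show that the changes are equal. In Dnmt3aKO HSCs, ENSMUST00000029722.6 was at 1340 to 2189 CPM and ENSMUST00000074680.7 at 4.55 to 6.94 CPM, and the latter range overlapped that of Control HSCs. ENSMUST00000029936.4 was at 2.02 and 4.10 CPM in Dnmt3aKO HSC 1 and 2 but at 66.4 CPM in Dnmt3aKO HSC 4. ENSMUST00000161230.2 was at 68.3, 147 and 327 CPM in Dnmt3aKO HSC 1, 2 and 4, against 176 to 232 CPM in Control HSCs. Dnmt3aKO HSC 4 held 28667 transcripts, against 41494 and 40118 in Dnmt3aKO HSC 1 and 2.

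**Figure D3:**
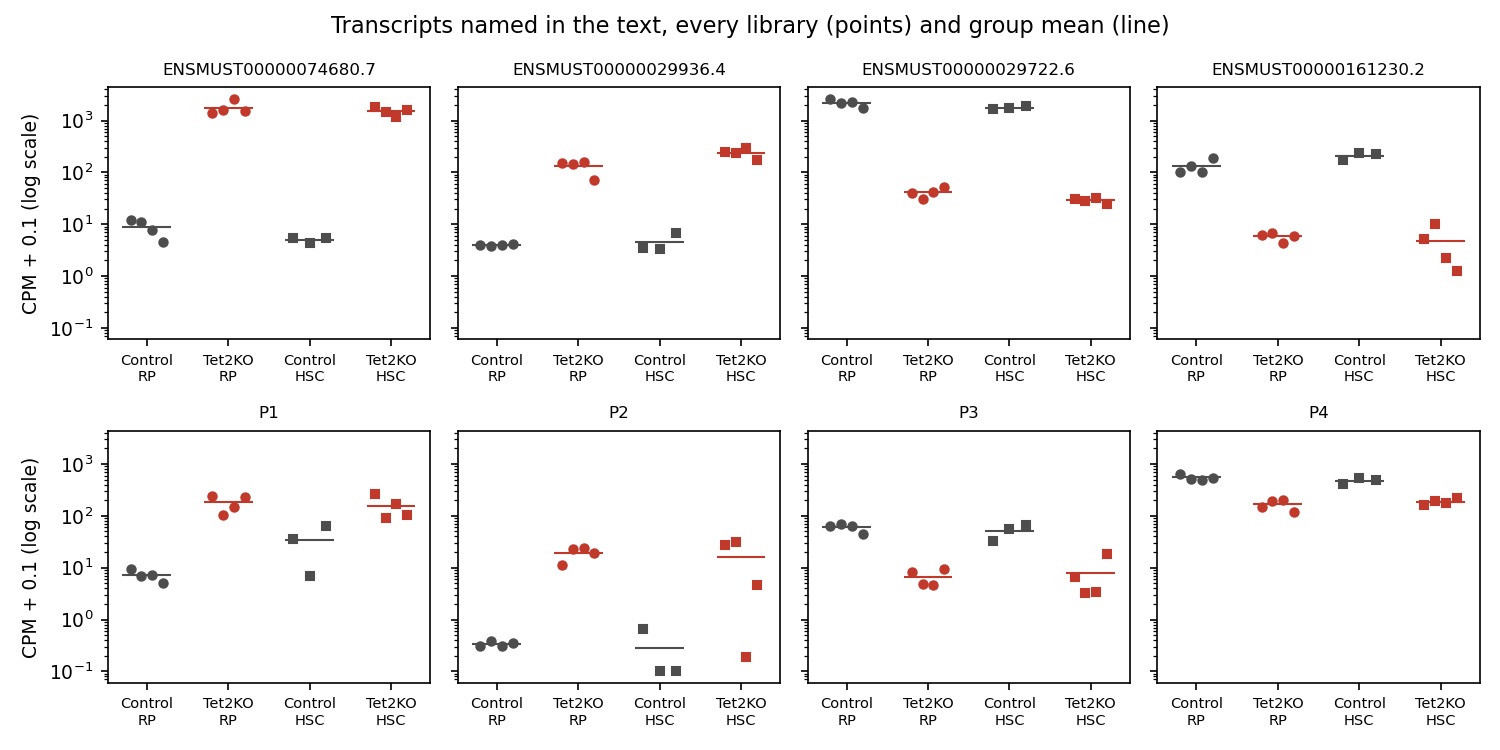
Level in CPM + 0.1 (y axis, log scale) of 8 transcripts in every Control (grey) and Tet2KO (red) library of RPs (circles) and HSCs (squares), with the group means as lines. The top row holds the 4 transcripts named by identifier and the bottom row P1 to P4, called in RPs and not in HSCs. In the RP libraries no groups overlap, and in HSCs P2 has 1 Tet2KO library within the Control range.

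The other 57 tested transcripts, 39 higher and 18 lower in Tet2KO RPs, did not pass edgeR's threshold in HSCs. Their number became 28 to 37 without Control RP 1, 2 or 3 or Tet2KO RP 3. Of the 57, 55 had the same direction there, 48 differed at least 2-fold in that direction, and 42 had an unadjusted p under 0.05, which 7.64% of all transcripts tested in HSCs reached. Their median log2 fold change in HSCs was 2.23 for the higher and -1.24 for the lower ones, against 3.7 and -1.91 in RPs. For the 9 higher and 7 lower transcripts called in both, the medians in HSCs were 6.05 and -3.95. The medians in RPs come from the comparison that chose the transcripts.

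Examples were taken by the same rule of smallest p, 2 in each direction, and are called P1 to P4. P1, higher and 5th by p, stood at 9.22, 6.87, 7.25 and 4.86 CPM in Control RP 1, 2, 3 and 5 and at 244, 105, 148 and 231 CPM in Tet2KO RP 1, 3, 4 and 5 (4.70 on the log2 scale, SE 0.34, with an adjusted p of 4.72e-06 by edgeR). In HSCs it stood at 6.79 to 62.3 CPM in the Controls and 90.2 to 259 CPM in Tet2KO, or 2.21 on the log2 scale (SE 0.66) with an adjusted p of 0.405 (edgeR). The Control HSCs were far more spread than the Control RPs, and neither cell type showed an overlap between genotypes.

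P2, higher and 8th by p, stood at 0.213 to 0.286 CPM in Control RPs, from 5 counts, and at 11.4, 22.9, 23.4 and 18.8 CPM in Tet2KO RP 1, 3, 4 and 5 (6.17 on the log2 scale, SE 0.49, with an adjusted p of 1.20e-05 by edgeR). In Tet2KO HSC 1, 2, 3 and 4 it stood at 27.0, 31.6, 0.0905 and 4.63 CPM. Tet2KO HSC 3 was thus at the level of the Control HSCs, which lay between 0 and 0.561 CPM, and the log2 fold change in HSCs was 6.34 (SE 1.85, adjusted p = 0.397, edgeR).

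P3, lower and 13th by p, fell from 44.9 to 68.7 CPM in Control RPs to 4.49 to 9.25 CPM in Tet2KO RPs (-3.18 on the log2 scale, SE 0.31, with an adjusted p of 8.74e-05 by edgeR). In HSCs its log2 fold change was -2.72 (SE 0.62, adjusted p = 0.244, edgeR), with Tet2KO HSC 4 at 18.3 CPM and the other Tet2KO HSC libraries at 3.21 to 6.50 CPM. P4, lower and 22nd by p, stood at 653, 526, 501 and 529 CPM in Control RP 1, 2, 3 and 5 and at 147, 195, 203 and 119 CPM in Tet2KO RP 1, 3, 4 and 5 (-1.74 on the log2 scale, SE 0.22, with an adjusted p of 0.0015 by edgeR). In HSCs it went from 413 to 543 CPM in Controls to 161 to 223 CPM in Tet2KO, did not overlap, and narrowly missed the threshold (-1.34 on the log2 scale, SE 0.19, with an adjusted p of 0.0561 by edgeR).

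**Figure D4:**
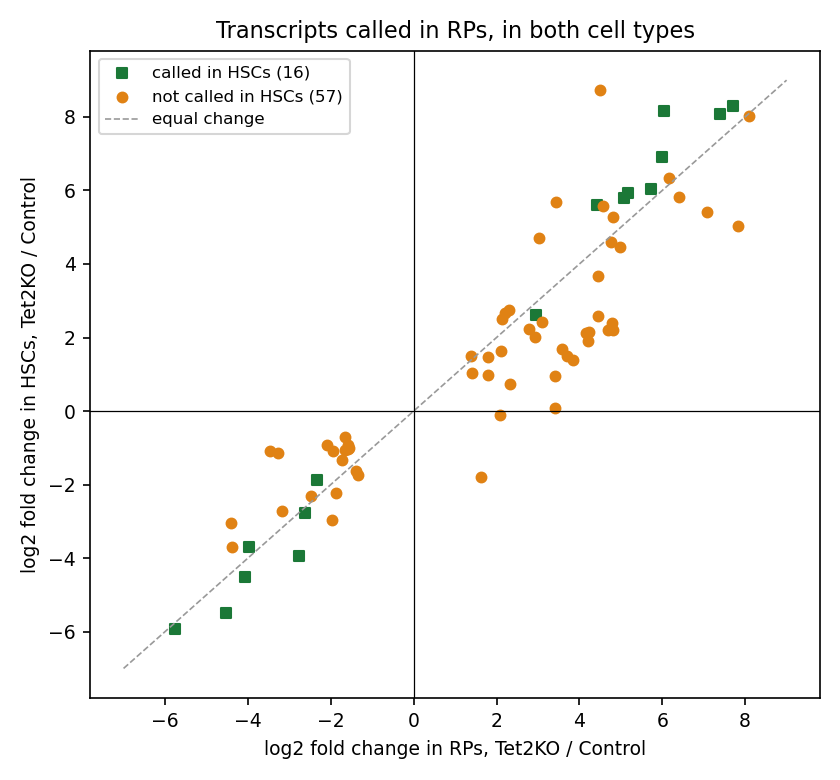
log2 fold change of Tet2KO over Control in RPs (x axis) against that in HSCs (y axis) for the 73 transcripts called in RPs and tested in HSCs, with green squares for the 16 called in HSCs, orange circles for the 57 not called, and a dashed line for equal change. In 71 both changes have the same sign, and 2 higher transcripts lie below 0 in HSCs.

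In 15 of the 57 transcripts, 10 higher and 5 lower, the unadjusted p in HSCs was 0.05 or more. One of them, 41st by p, stood at 0.512 to 1.29 CPM in Control RPs and 4.29 to 12.6 CPM in Tet2KO RPs, and its log2 fold change in HSCs was 0.09 (SE 1.23). Another, 64th by p, rose from 12.8 to 21.2 CPM in Control RPs to 40.2, 45.9, 39.5 and 86.2 CPM in Tet2KO RP 1, 3, 4 and 5, while Control HSCs stood at 0.187, 16.5 and 47.6 CPM and Tet2KO HSCs at 1.72 to 9.85 CPM. Its groups were apart in RPs and overlapped in HSCs, where its log2 fold change was -1.80 (SE 1.10). It was called in 2 of the 8 fits that left out 1 RP library. A lower transcript, 30th by p, fell from 30.1 to 49.5 CPM in Control RPs to 0.685 to 7.09 CPM in Tet2KO RPs. In HSCs it stood at 13.7 to 38.2 CPM in Controls and 5.35 to 27.8 CPM in Tet2KO, and these ranges overlapped. The other 5 of the 78, 3 higher and 2 lower, passed the filter on low counts in too few HSC libraries to be tested there. One of them, lower and 47th by p, stood at 28.2 CPM in Control HSC 4 and at 0.374 and 0.151 CPM in Control HSC 2 and 3.

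A call in RPs alone does not show that RPs and HSCs differ, and the difference was tested directly. The test of the Tet2 effect in RPs minus that in HSCs, over 15 libraries, passed the threshold for 0 of 25875 transcripts (0.00%) by edgeR, with 1690 at an unadjusted p under 0.05 (6.53%). DESeq2 called 28 (0.128%), none of them among the 78. All 78 were tested, and 14 had an unadjusted p under 0.05, 13 of them not called in HSCs. The change was in the same direction and larger in RPs for 11 of the 14, larger in HSCs for 2, and opposite in sign for 1, the transcript 64th by p. The 78 were chosen by their change in these same RP libraries, and that choice favours a larger change in RPs. The 11 include P1 and the transcripts 9th, 14th, 18th and 20th by p, which shared a pattern over the HSC libraries (below). The smallest adjusted p among the 78 was 0.582 (edgeR). For P1 the change in RPs exceeded that in HSCs by 2.47 on the log2 scale (SE 0.71, unadjusted p = 0.00283, adjusted p = 0.582, edgeR), and for the transcript 64th by p by 3.41 (SE 1.11, unadjusted p = 0.00691, adjusted p = 0.582, edgeR). By edgeR, no transcript was therefore shown to change in RPs to a different extent than in HSCs.

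The HSC libraries also set the 78 beside a second mutant. All Tet2KO HSC libraries lay above all Control HSC libraries for 31 of the 51 higher transcripts (4.78% of all transcripts tested in HSCs did) and below them for 19 of the 27 lower ones (3.37% of all, 8.15% in either direction). All Dnmt3aKO HSC libraries lay above the Controls for 11 of the 51 (3.46% of all) and below them for 4 of the 27 (4.79% of all, 8.26% in either direction). In 1 of the 78 they lay apart in the direction opposite to that in RPs, and the Tet2KO HSC libraries did so in 0. These 11 higher transcripts include P1 and those 9th, 14th, 18th, 20th and 62nd by p, which shared a pattern over the HSC libraries (below). Both comparisons share the Control HSC libraries. The 51 and 27 include 3 higher and 2 lower transcripts that were not tested in HSCs, while the shares of all cover tested ones only.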

How the data were processed

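The authors deposited 1 table of raw read counts per Ensembl transcript (138835 transcripts, 36 columns), with exon counting and a GENCODE mouse annotation per its name. Tools named in the submitters' processing notes include edgeR 3.9, STAR 2.0.4 and HTSeq 0.8.0, with mm10 as the build. Which tool did what, the strand setting and the treatment of shared exons: not given in the sources used here, so counts of overlapping, antisense or near-identical transcripts are uncertain. Of the columns, 18 matched the study and 18 were not used. RP columns carry numbers that differ from the sample titles, and were assigned to their group only. HSC columns name no cell type, and were matched by genotype and number to the HSC titles. The 18 ATAC-seq samples were not analysed here.

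The 8 RP libraries were filtered by group with edgeR's filterByExpr (at least 10 counts at the median library size, 15 in all), keeping 97.6% of their counts. They were scaled with TMM and tested in R 4.3.3 with edgeR 4.0.16 (quasi-likelihood, group as the only term, adjusted p under 0.05). The HSC comparison (7 libraries) and the difference between cell types (15 libraries) were fitted alike. CPM use TMM-scaled library sizes, set separately for RPs (from the counts of the tested transcripts) and for the 10 HSC libraries (from all counts). The SE is the log2 fold change divided by the square root of F. Principal components used log2 CPM (prior count 2). Alternatives used DESeq2 1.42.0, limma 3.58.1, other filters, other libraries and a replicate block. The test was checked on simulated data. Within a group, chi-square over its degrees of freedom was at least 9.45 between RP libraries and 21.0 between HSC libraries, so none was taken for a repeat deposit.

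The comparison to describe, the lists and the rules were chosen with earlier results of these data known, while libraries entered it by their labels alone. Identifiers are printed for the 2 higher and 2 lower transcripts with the smallest p, no overlap between groups and a mean of at least 5 CPM in the higher group. P1 to P4 follow the same rule among those tested and not called in HSCs. Other transcripts are given by their rank by p and were chosen after their values were seen. The planned gene lists and cell type markers could not be applied without gene names. Floors cover counting error only.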

Additional observations from a re-analysis of the deposited data

Results flagged for a closer look

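Of 30 groups of 4 libraries examined for a library far from the other 3 (a gap to the nearest library above Dixon's 95% critical value, which chance gives in about 1 in 20 groups), 2 met this. Both were Tet2KO RP 4. ENSMUST00000074680.7 stood at 2614 CPM there, against 1413 to 1574 CPM in the other Tet2KO RP libraries. The 10 most abundant transcripts took 15.8% of its counts, against 12.7% to 13.1% in the other 3.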

How the results depend on the processing

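Of the alternatives to the RP fit, RLE size factors called 77 transcripts and a filter of 1 CPM in 4 libraries 77, against 78. DESeq2 called 221 (142 higher, 79 lower), limma-voom 43 (24 higher, 19 lower), no filter on low counts 494 (355 higher, 139 lower), the fit of 15 libraries 46 and that of 18 libraries 36. All 78 were among the DESeq2 and no-filter calls, and 40, 40 and 32 among those of limma-voom and of the 15 and 18 libraries. Leaving out 1 RP library gave 46 to 90. The number of RP calls not called in HSCs, 57, became 188 with DESeq2, 26 with limma-voom, 296 with no filter, 27 with 15 libraries and 18 with 18 libraries, where each setting applied to RPs and HSCs stayed with edgeR on 7 libraries. It was 28 to 66 when 1 library was left out. With DESeq2 in HSCs only, 29 were not called and 44 were called in both. With DESeq2 in both cell types, 129 were not called, 66 were called in both, and 10 had no adjusted p in HSCs. Both were added after the data were seen. The 16 calls shared with HSCs became 28 when HSCs were fitted with all 18 libraries, and 8 to 18 when 1 library was left out. Without Tet2KO HSC 1 or 2, or Control HSC 3, they were 8. HSC calls, 21, became 53 with 18 libraries, 382 with DESeq2, and 10 to 26 when 1 library was left out. The difference between cell types went from 0 calls to 28 with DESeq2 and lay between 0 and 2 when 1 library was left out, the 2 arising without Control HSC replicate 3. The fits without 1 RP library were added for this difference after the data were seen. The cause of these moves was not tested.

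The numbers 1, 3 and 5 occur in both RP groups. Same-numbered libraries had deviations from their group means that correlated at -0.05, 0.01 and 0.08. Pairs with unlike numbers gave -0.09 to 0.16. What same-numbered libraries share beyond the number was not tested. With this number as a replicate block 45 transcripts were called (39 of the 78), 30 of them not called in HSCs. Among the 8 named transcripts, all kept direction in all 16 alternatives. P2 missed the threshold in 1 of them, the fit of 18 libraries, at adjusted p = 0.0796, and the other 7 kept their call. Levels under about 2.04 CPM were tested only where the other group was higher.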

Other observations

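All transcripts of the table, tested or not, were searched for a single RP library lying with the other genotype, a search chosen after the data were seen. The other 7 libraries had to separate by genotype at least 8-fold (on CPM + 0.5, with a group mean of at least 5 CPM), and the remaining one had to lie within 2-fold of the other genotype's range or beyond. Control RP 3 did so for 3 transcripts. The first is the lower transcript at 7.25 CPM described above. The second stood at 1.72, 3.15 and 2.94 CPM in Control RP 1, 2 and 5, at 114 CPM in Control RP 3 and at 114 to 230 CPM in Tet2KO RPs. Another stood at 0.512 to 0.858 CPM in the other Controls, at 30.5 CPM in Control RP 3 and at 33.6 to 63.7 CPM in Tet2KO RPs. Tet2KO RP 5 did so for 4 transcripts, all high in the other Tet2KO RPs and none of them tested in RPs, since the filter asked for 4 libraries. Control RP 1, Tet2KO RP 1 and Tet2KO RP 3 did so for 1 transcript each, and Control RP 2, Control RP 5 and Tet2KO RP 4 for 0. The pair low in the other Controls were called in HSCs and not in RPs, at adjusted p of 0.59 and 0.527 in RPs (edgeR).

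In all, 5 transcripts were called higher in HSCs and not in RPs, and 4 of them were tested in RPs, where all 4 had a positive log2 fold change from 1.14 to 2.92. The remaining one reached the filter's level in 3 RP libraries and not in the 4 it asked for. It is among those of Tet2KO RP 5 above and stood at 92.7, 32.6 and 75.2 CPM in Tet2KO RP 1, 3 and 4 and at 0.495 CPM in Tet2KO RP 5, within the 0.213 to 0.572 CPM of Control RPs.

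P1 and the higher transcript 9th by p kept a nearly fixed ratio, from 0.78 to 0.88 over the 4 Tet2KO RP libraries and from 0.74 to 0.865 over the 4 Tet2KO HSC libraries. For both, and for the higher transcripts 14th, 18th and 20th by p, Control HSC 3 was the lowest Control HSC library and Control HSC 4 the highest, and all Dnmt3aKO HSC libraries lay above all Control HSC libraries. Their log2 fold changes were 4.22 to 4.80 in RPs and 1.91 to 2.39 in HSCs. The higher transcript 62nd by p showed the same pattern over the HSC libraries, with log2 fold changes of 4.17 in RPs and 2.11 in HSCs. All these transcripts were picked after their values were seen, the HSC libraries are shared between them, and whether they share reads was not tested. A nearly fixed ratio in RPs was not particular to P1 and the transcript 9th by p. The ratio of P4 to the lower transcript 31st by p ran from 5.75 to 6.20 over the Control RP libraries. Over the Control HSC libraries it ran from 3.16 to 4.63.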
